A study of Mus musculus with 11 samples.

Results

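The genes described here make, sense and remove the second messengers cAMP and cGMP. They were taken by symbol, as adenylyl cyclases (Adcy), soluble guanylyl cyclases (Gucy) and phosphodiesterases (Pde). The regulatory and catalytic subunits of kinase A (Prkar and Prkac), kinase G (Prkg) and kinase A anchoring proteins (Akap) were also taken. The G protein subunits Gnas, Gnai1, Gnai2 and Gnai3, and the transcription factors Creb1 and Crem, completed the set. This symbol rule was set with earlier results of these data known. Of the 12787 genes with values, 52 met this rule, and each of the 52 is accounted for below. RNA sequencing was performed on gonadal white adipose tissue (WAT) of male C57Bl6/J mice, all fed a high fat diet (HFD) with 60% fat. The HFD group (vehicle, n = 5) received nothing further, and the HFD + IMC group (n = 6) received iodomethylcholine (IMC), a small molecule that blocks the gut bacterial enzyme splitting choline into trimethylamine. Both groups were therefore on the obesogenic diet, no lean or low fat group was sequenced, and a further vehicle library had been dropped by the submitters at quality control. Mouse ages are not given in the labels. Each mouse gave 1 library, mice are numbered within their group, and values are log2 of the reads of a gene relative to the scaled library size (log2 CPM).

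In a fat cell, hormones and nerves act on receptors coupled to the stimulatory G protein (Gs, alpha subunit Gnas) or the inhibitory G protein (Gi, alpha subunits Gnai1 to Gnai3), which switch adenylyl cyclase on or off. The cAMP formed binds the regulatory subunits of kinase A and frees its catalytic subunits, which phosphorylate hormone-sensitive lipase and perilipin and so start lipolysis, and also phosphorylate CREB in the nucleus. Phosphodiesterases end the signal by hydrolysing cAMP or cGMP, and Pde3b is the enzyme through which insulin restrains lipolysis in adipocytes. Anchoring proteins hold kinase A at defined places in the cell, and nitric oxide feeds a parallel cGMP branch through soluble guanylyl cyclase and kinase G.

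Depth ranged from 22320022 to 25155366 reads per library over these genes, and no library stood apart in depth or was a copy of another. A single member was covered by 16 to 21219 reads in a mouse. Marker genes of the tissue moved between the groups. Of 15 adipocyte markers, 14 were higher in IMC-treated mice and none was lower, and their mean level was between 8.18 and 8.83 log2 CPM in HFD mice and between 9.20 and 9.66 in IMC-treated mice. Of 16 macrophage markers, 13 were lower and none was higher, with a mean level between 8.76 and 9.0 in HFD mice and between 8.10 and 8.58 in IMC-treated mice. All 7 listed mast cell markers were lower, 5 of 10 progenitor and fibroblast markers were lower, 5 of 10 smooth muscle and pericyte markers were higher, and 2 of 10 endothelial markers were higher. The skeletal muscle genes Acta1 and Myh2 were higher, 2 of the 3 listed of 13 written. Myh2 was at -1.36 to -0.64 log2 CPM in HFD mice, below 1 CPM in each, and at 1.38 to 2.69 in IMC-treated mice. By the read filter that the authors describe, Myh2 was listed only through its level in the IMC-treated mice, so it could not have been listed as lower. Of the neutrophil (2 listed) and Schwann cell (4 listed) markers none passed the test, while 1 of 5 mesothelial markers was lower. The T cell and B cell lists had 1 listed gene each, which was not called for T cells and lower for B cells, and none of the 9 epididymis and testis markers was listed. In whole tissue, fewer cells of a type and less RNA per cell cannot be told apart, and the part of these marker shifts in the differences below was not tested.

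The letters to which CREB binds, TGACGTCA, form the cAMP response element (CRE), and its core is TGACG, which reads as CGTCA from the other strand. The palindromic E-box CACGTG is a second regulatory motif. RefSeq promoters on build GRCm38.p6 were found for 44 of the 52 members, with 91 windows because some genes have several starts, and the 250 bases before each start were searched on both strands. The windows below are those of the kinase A subunits, picked because these changed in opposite directions. Whether the motif letters relate to the direction of change was not tested. For each subunit with a match 1 window per motif is shown. Prkar2b and Prkaca were higher in IMC-treated mice, and Prkar1a, Prkar1b and Prkacb were lower. Prkar2a was also higher and is not shown, because no match to these motifs was found for it. The first 5 lines hold CRE letters and the last 4 hold an E-box, with the motif in capitals and 20 bases on each side, 5′ to 3′ in the direction of the gene.
Prkar1a, full CRE, chr11:109650880-109650927, plus strand: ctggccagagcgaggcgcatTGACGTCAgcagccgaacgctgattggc
Prkar1a, CRE core at another start, chr11:109649192-109649236, plus strand: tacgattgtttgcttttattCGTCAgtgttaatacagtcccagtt
Prkaca, CRE core, chr8:83972838-83972882, plus strand: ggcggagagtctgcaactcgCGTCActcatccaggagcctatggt
Prkacb, CRE core, chr3:146813024-146813068, minus strand: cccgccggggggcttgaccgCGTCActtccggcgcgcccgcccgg
Prkar1b, CRE core, chr5:139150026-139150070, minus strand: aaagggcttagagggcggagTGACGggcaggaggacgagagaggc
Prkar2b, E-box, chr12:32061332-32061377, minus strand: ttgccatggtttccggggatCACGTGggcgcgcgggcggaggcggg
Prkaca, E-box, chr8:83972773-83972818, plus strand: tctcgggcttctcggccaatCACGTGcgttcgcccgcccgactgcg
Prkar1a, E-box, chr11:109650460-109650505, plus strand: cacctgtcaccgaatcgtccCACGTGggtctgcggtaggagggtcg
Prkar1b, E-box, chr5:139130681-139130726, minus strand: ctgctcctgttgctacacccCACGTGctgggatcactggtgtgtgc

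Of the 44 members searched, Prkar1a alone held the full CRE, in 1 of the 91 member windows (1.1%). It was present in 1.55% of all 32851 promoter windows. The CRE core, which is contained in the full CRE, was found in 18 of the 91 member windows (19.8%) and in 17.8% of all windows. The E-box was found in 10 of the 91 member windows, each of a different member, against 6.02% of all windows. The 10 members with an E-box were Gnai1, Gnai3, Gucy1a2, Prkaca, Prkar1a, Prkar1b, Prkar2b, Akap7, Akap10 and Akap11, and they included genes that were higher, genes that were lower and genes that did not pass the test. These matches are descriptions of letters in the windows and not of bound sites.

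Across the 52 members, 15 were higher and 12 were lower in IMC-treated mice, and 25 did not pass the test (limma on the deposited log2 CPM, Benjamini-Hochberg adjusted p under 0.05 over all 12787 genes). That is 28.8% higher and 23.1% lower, beside 20.0% of all genes called higher and 21.0% called lower. The groups did not overlap for 13 members that were higher (25.0%) and 8 that were lower (15.4%), against 12.5% and 10.5% of all genes. The median log2 fold change over the 52 members was -0.01, and that over all genes was -0.03. The median size of the difference, regardless of sign, was 0.21 for the members and 0.17 for all genes. In 6 of the 9 classes, at least 1 member was higher while another was lower. Exons of 16 members overlap those of another gene in the GENCODE annotation, whereas the authors counted reads on UCSC annotation. The strand setting of the read count is not given in the sources used here. How reads in these overlaps were counted is therefore not known.

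**Figure D1:**
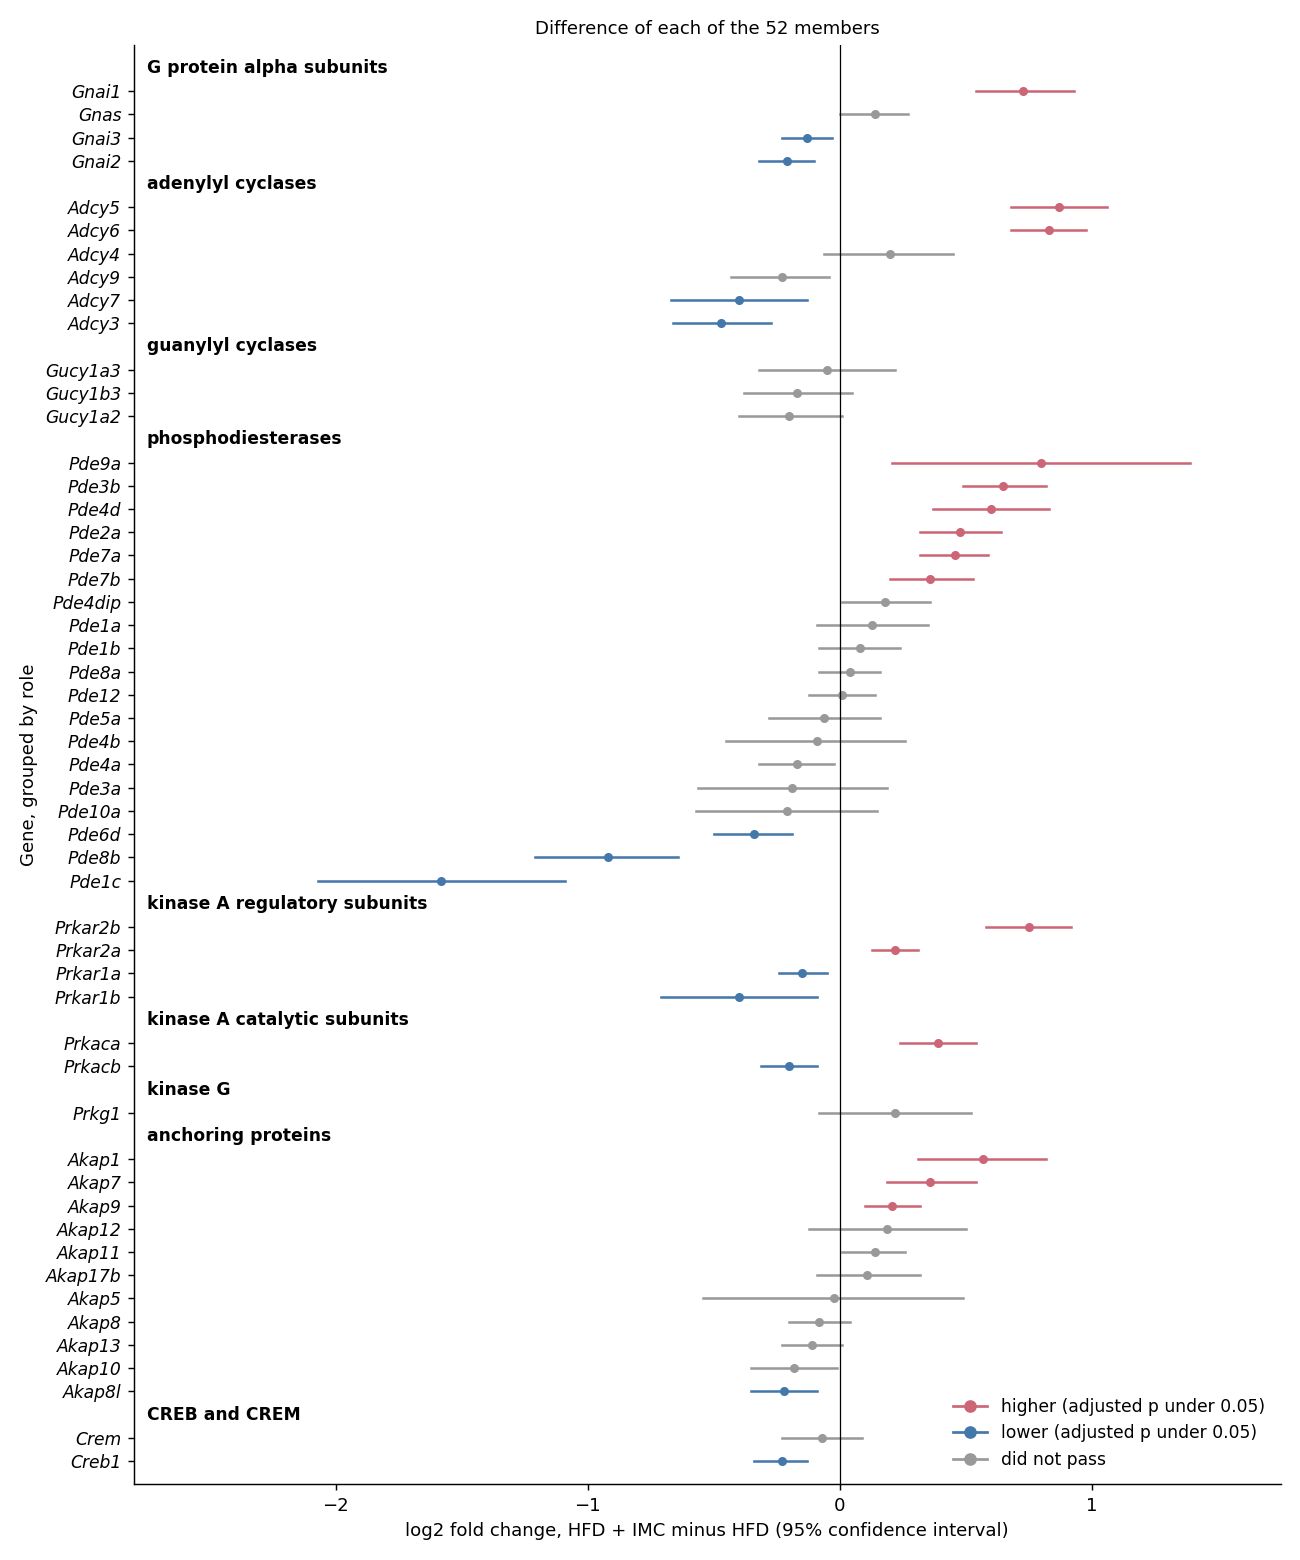
Log2 fold change (HFD + IMC minus HFD) of the 52 members with its 95% confidence interval from limma, grouped by role. Red marks the 15 members that were higher, blue the 12 that were lower and grey the 25 that did not pass an adjusted p of 0.05. Adenylyl cyclases, kinase A subunits and phosphodiesterases each held members on both sides of 0.

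Among the G protein alpha subunits, inhibitory Gnai1 rose while inhibitory Gnai2 and Gnai3 fell and stimulatory Gnas did not pass the test. Gnai1 (chromosome 5, 18265135 to 18360413, GRCm38) was measured at 7.06, 7.49, 7.15, 7.22 and 7.26 log2 CPM in the 5 HFD mice and at 7.78 to 8.26 (median 7.93) in the IMC-treated mice. Every IMC-treated mouse was above every HFD mouse. The fitted log2 difference was 0.73 ± 0.09 (SE), or 1.66-fold, with a limma adjusted p of 7.49e-05.

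Gnai2 (chromosome 9, 107614125 to 107635391), the most abundant of these subunits per length of exon, was at 9.36, 9.13, 9.24, 9.25 and 9.28 log2 CPM in HFD mice. In IMC-treated mice it ranged from 8.96 to 9.10 (median 9.05), below every HFD mouse, with a log2 fold change of -0.21 ± 0.05 (SE, limma adjusted p = 0.00617). Gnai3 fell by 0.13 on the log2 scale with overlapping groups (limma adjusted p = 0.0451). This call was lost without any of HFD mice 1 to 4 or HFD + IMC mice 2 to 6, where the adjusted p reached 0.111.

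Gnas (chromosome 2, 174284320 to 174346744) was at 9.59, 9.58, 9.49, 9.42 and 9.72 log2 CPM in HFD mice and at 9.61 to 9.81 (median 9.67) in IMC-treated mice. The groups overlapped, and the log2 fold change of 0.14 (95% confidence interval 0.00 to 0.27) did not pass the test (limma adjusted p = 0.0956). Without HFD mouse 5, which had the highest Gnas of its group, it was 0.18 with an adjusted p of 0.0358. Exons of Gnas overlap the antisense transcript Nespas.

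Expressed per kb of exon, Gnai1 made up 14.8% ± 1.91 (SD, n = 5) of the summed alpha subunits in HFD mice and 23.6% ± 1.92 (SD, n = 6) with IMC. The share of Gnai2 was 49.4% ± 2.08 in HFD mice and 41.2% ± 1.56 in IMC-treated mice, and that of Gnas was 20.7% ± 1.28 and 21.9% ± 0.969. The ratio of Gnas to the 3 inhibitory subunits together, in CPM, was 0.818 in HFD mice and 0.897 in IMC-treated mice as a geometric mean. This difference of 0.13 on the log2 scale had a raw p of 0.0455 and an adjusted p of 0.0606 (two-sided exact permutation test, adjusted over the 12 class totals and ratios computed). The adjusted p depends on the p-values of the totals, which are not reported, and whether this ratio passed rests on that choice. Without HFD mouse 5 the difference was 0.17 with an adjusted p of 0.0143.

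**Figure D2:**
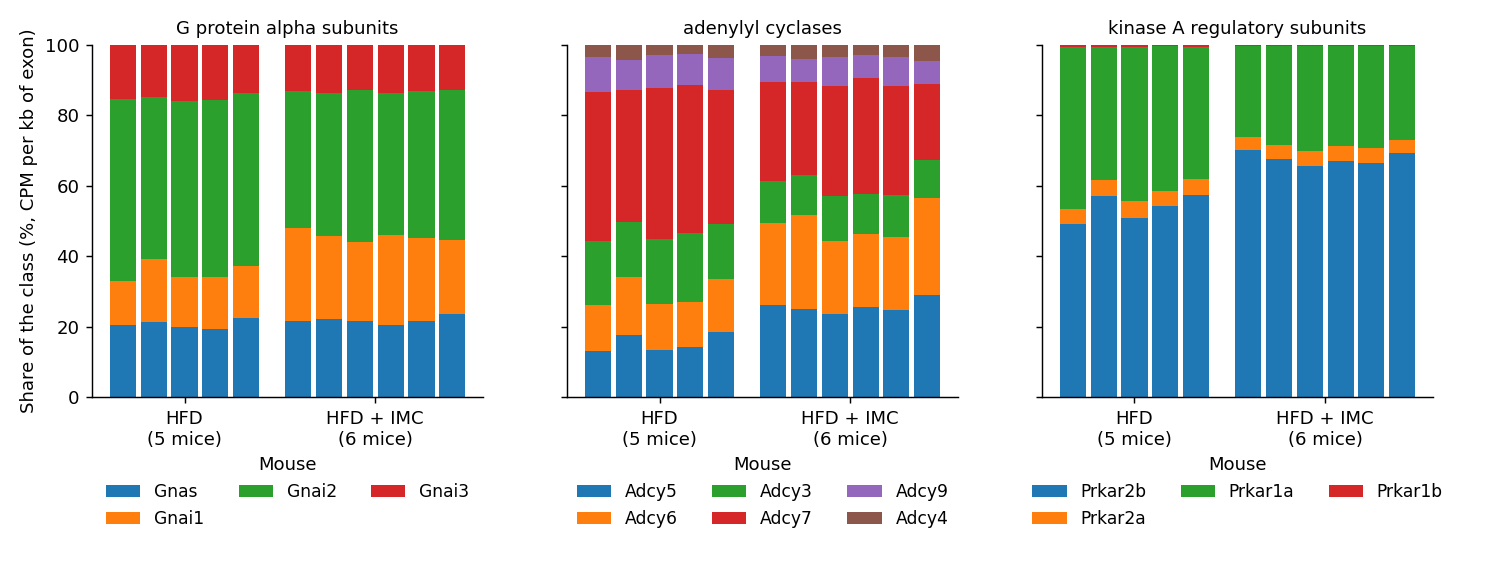
Share of each isoform in its class, in percent of the summed CPM per kb of exon, for each HFD mouse (5 bars, left) and each HFD + IMC mouse (6 bars, right). Gnai1, Adcy5, Adcy6 and Prkar2b take a larger part of their class in every IMC-treated mouse than in any HFD mouse, and Gnai2, Adcy3, Adcy7 and Prkar1a a smaller part.

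Among the 6 listed adenylyl cyclases, Adcy5 and Adcy6, a closely related pair inhibited by Gi and by calcium, rose, while Adcy3 and Adcy7 fell. Adcy5 (chromosome 16, 35154494 to 35305743) was at 6.74, 7.22, 6.95, 6.97 and 7.29 log2 CPM in HFD mice and at 7.80 to 8.01 (median 7.90) in IMC-treated mice. The group difference (log2) was 0.87 ± 0.09 (SE), or 1.83-fold, with a limma adjusted p of 3.49e-05. The lowest IMC-treated mouse stood above the highest HFD mouse by more than the SD of either group.

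Adcy6 (chromosome 15, 98589978 to 98610287) was at 6.69, 7.03, 6.83, 6.74 and 6.92 log2 CPM in HFD mice. It was at 7.56 to 7.84 (median 7.62) in IMC-treated mice, 0.83 ± 0.07 higher on the log2 scale (SE, limma adjusted p = 2.38e-05). Again the groups did not overlap.

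Adcy7 (chromosome 8, 88272190 to 88329965), a calcium-insensitive cyclase well known from blood and immune cells, had the highest level per kb of exon of the class. It was at 8.35, 8.20, 8.55, 8.43 and 8.25 log2 CPM in HFD mice and at 7.48 to 8.27 (median 8.0) in IMC-treated mice, with the groups overlapping. Its log2 fold change was -0.40 ± 0.13 (SE, limma adjusted p = 0.0216), and without HFD mouse 3 the adjusted p was 0.0594.

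Adcy3 fell by 0.47 on the log2 scale, and its groups did not overlap (limma adjusted p = 0.00147). Its exons overlap those of Cenpo on the other strand. Adcy9 had a log2 fold change of -0.23 (limma adjusted p = 0.0529), and Adcy4 one of 0.20 (adjusted p = 0.203). Adcy9 passed the test without HFD mouse 2 or without HFD + IMC mouse 3 or 5, at adjusted p values of 0.0467, 0.0293 and 0.0149 by limma.

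Per kb of exon, Adcy5 and Adcy6 took a larger part of the class in IMC-treated mice and Adcy7 and Adcy3 a smaller part. Adcy5 took 15.3% ± 2.54 (SD, n = 5) of the cyclases in HFD mice and 25.7% ± 1.88 (SD, n = 6) with IMC, and Adcy6 took 14.1% ± 1.60 and 23.3% ± 3.07. Adcy7 took 40.4% ± 2.55 and 28.5% ± 4.14, and Adcy3 took 17.5% ± 1.87 and 11.6% ± 0.665. The summed CPM of the 6 cyclases was 785 ± 38.4 in HFD mice and 864 ± 54.5 in IMC-treated mice, and the groups overlapped. Totals of a class are given as descriptions, with no p-value.

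The 3 listed subunits of soluble guanylyl cyclase, the receptor for nitric oxide, did not pass the test. Gucy1a3 (called Gucy1a1 in the annotation, chromosome 3, 82092427 to 82145946) was at 4.08, 4.44, 4.69, 4.28 and 4.48 log2 CPM in HFD mice and at 3.92 to 4.54 (median 4.46) in IMC-treated mice. The fitted log2 difference was -0.05 with a 95% confidence interval of -0.32 to 0.22 (limma adjusted p = 0.774). Those of Gucy1b3 and Gucy1a2 were -0.17 and -0.20. Prkg1, the kinase G gene and the only one listed, lay at 2.30, 2.51, 2.34, 2.50 and 2.40 log2 CPM in HFD mice and at 2.15 to 3.03 (median 2.67) in IMC-treated mice, with overlapping groups. Its log2 fold change of 0.22 (95% confidence interval -0.08 to 0.52) did not pass the test (limma adjusted p = 0.220), but it did without HFD + IMC mouse 4 (0.32, adjusted p = 0.0439).

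Of the 19 genes with a Pde symbol, 6 rose and 3 fell, and 10 did not pass the test. Pde12, an enzyme acting on RNA tails and oligoadenylates, Pde6d, a carrier of prenylated proteins, and Pde4dip, a protein of the Golgi and centrosome, are not cyclic nucleotide hydrolases. Of these, Pde6d fell by 0.34 (limma adjusted p = 0.00218, no overlap), and Pde12 and Pde4dip had log2 fold changes of 0.01 and 0.18. Among the 16 remaining enzymes, the members that rose were Pde2a, Pde3b, Pde4d, Pde7a, Pde7b and Pde9a, and the members that fell were Pde1c and Pde8b.

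Pde3b (chromosome 7, 114415222 to 114537938), the insulin-regulated enzyme of adipocytes, was at 7.08, 7.42, 6.92, 7.11 and 7.17 log2 CPM in HFD mice and at 7.63 to 7.90 (median 7.82) in IMC-treated mice. The groups did not overlap, and the log2 fold change was 0.65 ± 0.08 (SE), or 1.57-fold (limma adjusted p = 6e-05). Its relative Pde3a, the main form of heart and platelets, had a log2 fold change of -0.19 with a 95% confidence interval of -0.56 to 0.19 (adjusted p = 0.422). The ratio of Pde3b to Pde3a in CPM was 32.0 in HFD mice and 57.3 in IMC-treated mice as a geometric mean, a difference of 0.84 on the log2 scale (two-sided exact permutation test, p = 0.00433, adjusted p = 0.00742 over the same 12). Every IMC-treated mouse had a higher ratio than every HFD mouse. The ratio reuses the Pde3b values already tested above, so its p is not separate support.

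Pde2a (chromosome 7, 101421691 to 101512829), which is stimulated by cGMP and hydrolyses both messengers, was the most abundant phosphodiesterase per kb of exon. It was at 7.38, 7.70, 7.62, 7.38 and 7.66 log2 CPM in HFD mice and at 7.86 to 8.17 (median 8.05) in IMC-treated mice, with no overlap (log2 fold change 0.48 ± 0.07, SE, limma adjusted p = 0.000335). Together with Pde3b it made up most of the hydrolases per kb of exon, Pde2a with 36.2% ± 1.98 (SD, n = 5) in the HFD group and 38.9% ± 2.18 (SD, n = 6) with IMC. The share of Pde3b was 18.4% ± 1.65 and 22.4% ± 1.13.

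Pde4d (chromosome 13, 108654177 to 109955969), a cAMP-specific enzyme, was at 3.59, 3.84, 3.57, 3.63 and 3.89 log2 CPM in HFD mice and at 4.07 to 4.55 (median 4.29) in IMC-treated mice. All IMC-treated mice were above all HFD mice (log2 fold change 0.60 ± 0.11, SE, limma adjusted p = 0.000882). The other listed members of the Pde4 family, Pde4a and Pde4b, had log2 fold changes of -0.17 and -0.09 (limma adjusted p = 0.0720 and 0.683). Pde7a and Pde7b, also cAMP-specific, rose by 0.46 and 0.36 on the log2 scale, each with no overlap between the groups (limma adjusted p = 0.000156 and 0.0023).

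Pde9a (chromosome 17, 31386105 to 31476309), specific for cGMP, was a low member at 0.29, 0.95, 0.99, 0.89 and 1.31 log2 CPM in HFD mice and 1.11 to 2.63 (median 1.51) in IMC-treated mice. The groups overlapped, and HFD + IMC mouse 6 was the highest. The group difference (log2) was 0.80 ± 0.27 (SE, limma adjusted p = 0.0313). The call was lost without HFD mouse 1, 3 or 4 or without HFD + IMC mouse 2, 5 or 6, with log2 fold changes of 0.62 to 0.83 and adjusted p values of 0.0514 to 0.0845.

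Pde1c and Pde8b fell furthest of all members. Pde1c (chromosome 6, 56069798 to 56652510), a calmodulin-stimulated enzyme hydrolysing cAMP and cGMP, was at 1.62, 1.69, 1.52, 1.39 and 2.11 log2 CPM in HFD mice. It ranged from -0.50 to 0.76 (median -0.02) in IMC-treated mice, below every HFD mouse. Its log2 fold change was -1.58 ± 0.23 (SE), 0.335 times the HFD level (limma adjusted p = 0.000203), and the lowest mouse had 16 reads of this gene. The related Pde1a and Pde1b did not pass the test, with log2 fold changes of 0.13 and 0.08.

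Pde8b (chromosome 13, 95024105 to 95250401), a cAMP-specific enzyme of high affinity, was at 3.56, 3.11, 3.24, 3.06 and 3.10 log2 CPM in HFD mice and at 1.96 to 2.54 (median 2.36) in IMC-treated mice. The groups did not overlap, and the log2 fold change was -0.92 ± 0.13 (SE), 0.527 times the HFD level (limma adjusted p = 0.000203). Pde8a, with higher levels per kb of exon, had a log2 fold change of 0.04 (95% confidence interval -0.08 to 0.16). Pde5a and Pde10a did not pass the test, with log2 fold changes of -0.06 and -0.21. Summed over the 19 genes, phosphodiesterase messages were at 686 ± 43.9 CPM (SD, n = 5) in the HFD group and 874 ± 24.5 CPM (SD, n = 6) with IMC, and every IMC-treated mouse was above every HFD mouse.

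**Figure D3:**
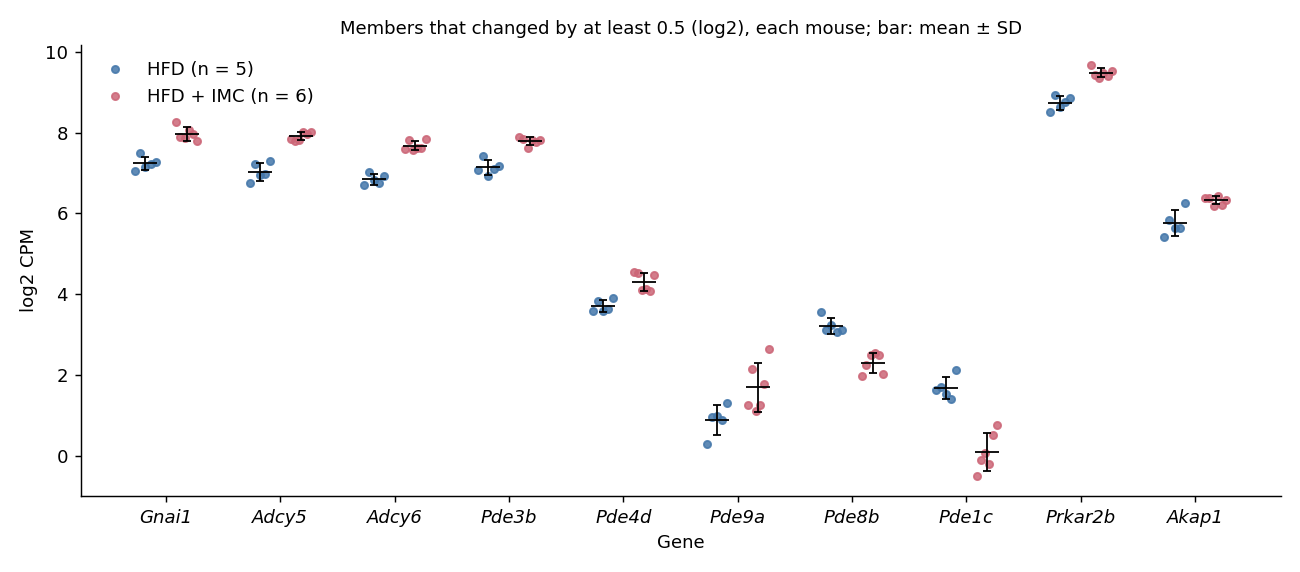
Log2 CPM of the 10 members that passed the test with a change of at least 0.5 on the log2 scale, 1 point per mouse, with bars for the mean ± SD of each group (HFD, n = 5, and HFD + IMC, n = 6). The groups are apart for 8 of the 10 genes and overlap for Pde9a and Akap1, and Pde1c shows the widest step down, from 1.39 or above to 0.76 or below.

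All 4 regulatory subunits of kinase A passed the test, the type II subunits in one direction and the type I subunits in the other. Prkar2b (chromosome 12, 31958450 to 32061648), the RII beta subunit that predominates in adipose tissue and brain, was at 8.50, 8.92, 8.63, 8.76 and 8.85 log2 CPM in HFD mice. It was at 9.36 to 9.67 (median 9.46) in IMC-treated mice, all above the HFD mice. The fitted log2 difference was 0.75 ± 0.08 (SE), or 1.68-fold (limma adjusted p = 3.5e-05).

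Prkar2a, the more widely expressed RII alpha subunit, rose by 0.22 with no overlap (limma adjusted p = 0.00134). Prkar1a, the RI alpha subunit, fell by 0.15 with no overlap (adjusted p = 0.0187), and without HFD mouse 3 its adjusted p was 0.0540. Prkar1b, at a mean of 2.34 ± 0.30 log2 CPM in HFD mice and 1.93 ± 0.18 in IMC-treated mice, fell by 0.40 (limma adjusted p = 0.0381) with overlapping groups. That call was lost without HFD mouse 1, 2 or 3 or HFD + IMC mouse 3, 4, 5 or 6, where the adjusted p reached 0.107.

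Prkar2b held 53.7% ± 3.74 (SD, n = 5) of the regulatory subunits per kb of exon in HFD mice and 67.8% ± 1.70 (SD, n = 6) with IMC, while Prkar1a held 41.2% ± 3.55 and 28.0% ± 1.47. The ratio of Prkar2b to Prkar1a in CPM was 1.10 in HFD mice and 2.05 in IMC-treated mice as a geometric mean, 0.89 higher on the log2 scale (exact permutation test, two-sided, p = 0.00216, the smallest that 5 against 6 mice allow, and adjusted p = 0.00433 over the 12). It lay between -0.15 and 0.37 on the log2 scale in HFD mice and between 0.90 and 1.20 in IMC-treated mice. Because both subunits were already apart between the groups in opposite directions, their ratio had to separate as well. Its p is therefore no further support. The summed regulatory subunits were at 881 ± 38.5 CPM and 1140 ± 57.1 CPM, with no overlap between the groups.

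The catalytic subunits also moved apart. Prkaca (chromosome 8, 83972978 to 83996444), the widely expressed C alpha subunit, was at 7.09, 7.29, 7.13, 7.13 and 7.41 log2 CPM in HFD mice and at 7.48 to 7.75 (median 7.59) in IMC-treated mice. The groups did not overlap (log2 fold change 0.39 ± 0.07, SE, limma adjusted p = 0.0007). Prkacb, the C beta subunit, fell by 0.20 (limma adjusted p = 0.00808), and its groups overlapped.

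The ratio of Prkaca to Prkacb in CPM was 1.05 in HFD mice and 1.58 in IMC-treated mice, 0.59 higher on the log2 scale (exact permutation test, two-sided, p = 0.00216, the smallest possible, adjusted p = 0.00433 over the 12). Prkaca and Prkacb were already called in opposite directions, so the p of their ratio is not separate support. Their sum was at 290 ± 7.54 CPM in HFD mice and 317 ± 10.7 CPM in IMC-treated mice, with no overlap. The increase of the sum relative to its HFD mean was 9.65%, beside 29.6% for the regulatory subunits and 27.3% for the phosphodiesterases.

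**Figure D4:**
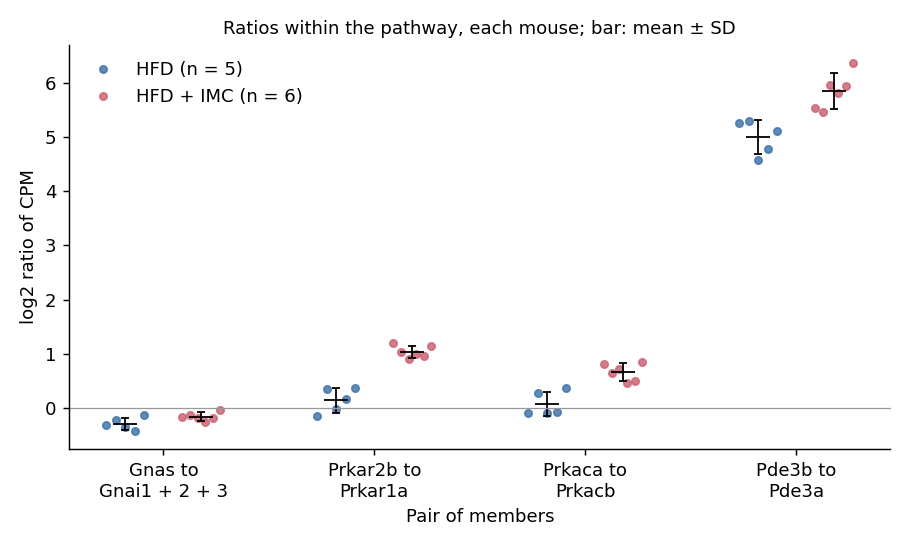
Log2 ratios of CPM between members, 1 point per mouse, with bars for the mean ± SD of each group (HFD, n = 5, and HFD + IMC, n = 6). The groups are apart for Prkar2b to Prkar1a, Prkaca to Prkacb and Pde3b to Pde3a, and they overlap for Gnas to the sum of Gnai1, Gnai2 and Gnai3.

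Of the 11 anchoring proteins, Akap1, Akap7 and Akap9 rose, Akap8l fell and 7 did not pass the test. Akap1 (chromosome 11, 88830792 to 88864596), which tethers kinase A to the outer membrane of mitochondria, was at 5.42, 5.83, 5.63, 5.64 and 6.26 log2 CPM in HFD mice and at 6.19 to 6.44 (median 6.36) in IMC-treated mice. HFD mouse 5 reached into the range of the IMC-treated mice. The group difference (log2) was 0.57 ± 0.12 (SE), or 1.48-fold (limma adjusted p = 0.00208).

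Akap7, known for targeting kinase A to membranes, and Akap9, a large scaffold of the centrosome and Golgi, rose by 0.36 and 0.21 on the log2 scale, and their groups did not overlap (limma adjusted p = 0.0036 and 0.00611). Exons of Akap9 overlap those of Cyp51 on the other strand. Akap8l, a nuclear protein related to Akap8, fell by 0.22 with no overlap (adjusted p = 0.0112).

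Akap12 (chromosome 10, 4266329 to 4359471), a scaffold at the plasma membrane, had the highest level per kb of exon of the class. It was at 6.68, 6.83, 6.81, 6.71 and 7.60 log2 CPM in HFD mice and at 6.86 to 7.35 (median 7.13) in IMC-treated mice. HFD mouse 5 was above all IMC-treated mice while the other HFD mice were below them all, and the log2 fold change was 0.19 (limma adjusted p = 0.317). Without HFD mouse 5 it was 0.36 with an adjusted p of 0.0037.

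The 6 remaining anchoring proteins had log2 fold changes of -0.18 (Akap10), -0.11 (Akap13), -0.08 (Akap8), -0.02 (Akap5), 0.11 (Akap17b) and 0.14 (Akap11), none past the threshold. Akap10 passed it without HFD + IMC mouse 5 (-0.22, limma adjusted p = 0.042) and Akap11 without HFD + IMC mouse 4 (0.17, adjusted p = 0.0354), the same mouse without which Pde4dip passed it (0.22, adjusted p = 0.0399).

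Creb1, the transcription factor that kinase A phosphorylates, fell slightly, and Crem did not pass the test. Creb1 (chromosome 1, 64532794 to 64604548) was at 6.03, 5.98, 5.97, 6.07 and 5.89 log2 CPM in HFD mice and at 5.66 to 5.85 (median 5.76) in IMC-treated mice. The groups did not overlap, and the log2 fold change was -0.23 ± 0.05 (SE, limma adjusted p = 0.00215).

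Crem, a relative of CREB that also gives rise to inducible repressor forms, was at 4.09, 4.10, 4.07, 4.08 and 4.37 log2 CPM in HFD mice and at 3.96 to 4.24 (median 4.04) in IMC-treated mice. HFD mouse 5 was the highest of all. Its log2 fold change was -0.07 with a 95% confidence interval of -0.23 to 0.09 (limma adjusted p = 0.448). Reads per gene do not separate the isoforms of Crem.

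Within the HFD group, the mice were ordered in a like manner over many members. HFD mouse 2 had the highest level of its group for 10 of the 15 members that were higher in IMC-treated mice and HFD mouse 5 for the other 5, while HFD mouse 1 was the lowest for 11 and HFD mouse 3 for 4. HFD mice 2 and 5 also had the highest mean adipocyte marker levels of their group, 8.80 and 8.83 log2 CPM, against 8.18 to 8.42 in the other HFD mice. Their mean over the 15 members was 6.03 and 6.0 log2 CPM, against 5.69 to 5.82. Among the 12 members that were lower, HFD mouse 3, with a macrophage marker mean of 9.0, was the highest of its group for 5 and HFD mouse 1, with 8.99, for 4. In the HFD + IMC group the order was less regular, and no mouse was the highest for more than 6 of the 15. HFD + IMC mouse 1, with the highest adipocyte marker mean of its group (9.66), was the highest for 6 of the 15, while HFD + IMC mouse 4, with the lowest (9.20), was the highest for 4 and the lowest for 2. Of the 12 lower members, HFD + IMC mouse 1 was the highest of its group for 4 and the lowest for another 4. HFD + IMC mouse 4 was the highest for 4 and the lowest for 0. HFD + IMC mouse 6, with the lowest macrophage marker mean (8.10), was the highest for 1 and the lowest for 4. HFD + IMC mouse 3, with the highest such mean (8.58), was the highest for 2 and the lowest for 2. The part of cell composition in these values was not tested.

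Upstream of the members, counts are read beside the 20.0% of all genes that were higher and the 21.0% that were lower. Of 20 listed genes for receptors coupled to Gs (with their accessory proteins), 5 rose and 6 fell, near those shares, and the median log2 fold change was -0.14. Those with the largest differences were the ACTH receptor Mc2r (log2 fold change 1.03 ± 0.10, SE), the thyrotropin receptor Tshr (0.95 ± 0.10) and the secretin receptor Sctr (0.93 ± 0.20), with adjusted p values of 3.22e-05, 3.5e-05 and 0.00267 by limma. Sctr was low, at a mean of 0.98 log2 CPM in HFD mice, and its groups overlapped. The beta 3 adrenergic receptor Adrb3, at a mean of 5.66 log2 CPM in HFD mice and 6.49 in IMC-treated mice, rose by 0.83 ± 0.25 (limma adjusted p = 0.0176). Its groups overlapped, at 5.04 to 6.64 in HFD mice and 6.08 to 6.93 in IMC-treated mice. Receptors that fell included the proton-sensing Gpr65, the prostaglandin E receptors Ptger2 and Ptger4, Vipr2 and Calcrl. Beyond the 3 genes with the largest differences of each list, those named here and in the lists below were chosen after their values were seen.

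Of 16 listed genes of the Gi-coupled list, 8 rose and 3 fell, with a median log2 fold change of 0.33. The cannabinoid receptor Cnr1 rose by 1.22 ± 0.15 (SE), the adenosine receptor Adora1 by 1.21 ± 0.16 and the lactate receptor Hcar1 by 0.93 ± 0.11 (limma adjusted p = 6.38e-05, 0.000105 and 7.64e-05). The 3 that fell were Sstr2, Cnr2 and Lpar1. Of 25 other G protein subunits and regulators, 4 rose and 12 fell (median -0.18). Gnal, a stimulatory alpha subunit first known from olfactory neurons, and Gnao1, the Go alpha subunit, rose by 0.77 ± 0.15 and 0.77 ± 0.10, and Gpsm3, a modulator of Gi signalling, fell by 0.69 ± 0.10 (limma adjusted p = 0.0013, 7.88e-05 and 0.000173).

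The natriuretic peptide and nitric oxide inputs to cGMP had 4 genes that rose and none that fell among 8 (median 0.32). Npr3, the clearance receptor for natriuretic peptides, rose by 0.87 ± 0.09, the endothelial nitric oxide synthase Nos3 by 0.83 ± 0.17 and Nos1ap by 0.77 ± 0.15 (limma adjusted p = 3.5e-05, 0.00217 and 0.00146). Of the signalling receptors, Npr2 rose by 0.44 ± 0.09 with overlapping groups (limma adjusted p = 0.00196), and Npr1 had a log2 fold change of -0.17 (adjusted p = 0.0983).

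Among 14 kinase A inhibitors, EPAC genes and other effectors, 4 rose and 3 fell (median 0.08). The channel Hcn2 rose by 0.86 ± 0.16 and Pkia, which encodes an inhibitor peptide of the catalytic subunit, by 0.64 ± 0.09, whereas the related Pkib fell by 0.68 ± 0.14 (limma adjusted p = 0.00117, 0.00022 and 0.00176). Hcn2 was low, at a mean of 0.37 log2 CPM in HFD mice, and the groups overlapped for Pkib. Of 19 CREB family genes, coactivators and their regulators, 5 rose and 2 fell (median -0.04). The salt-inducible kinase Sik2, which restrains CREB coactivators, rose by 0.64 ± 0.08, with Crebl2 at 0.38 ± 0.07 and Creb3l2 at 0.34 ± 0.07 (limma adjusted p = 7.42e-05, 0.000734 and 0.0021). For Creb3l2 the groups overlapped.

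Downstream, all 8 lipolysis genes rose (median 0.77), a list that shares Lipe, Plin1 and Fabp4 with the adipocyte markers. G0s2, an inhibitor of the lipase Pnpla2, rose by 1.01 ± 0.14, hormone-sensitive lipase Lipe by 0.90 ± 0.12 and perilipin Plin1 by 0.84 ± 0.11 (limma adjusted p = 0.000172, 0.000107 and 9.98e-05). Of 20 textbook genes that respond to cAMP and CREB, 3 rose and 6 fell (median -0.16). The 3 that rose were Rasd1 (1.83 ± 0.31), the gluconeogenic and glyceroneogenic enzyme Pck1 (1.30 ± 0.18) and Irs2 (0.72 ± 0.13), with adjusted p values of 0.000633, 0.000152 and 0.000752 by limma. The 6 that fell were the immediate early genes Atf3, Junb, Egr2, Ier2, Egr1 and Fos. Genes of this list, whether they rose or fell, also respond to other stimuli, and the part of cAMP in these differences was not tested.

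**Figure D5:**
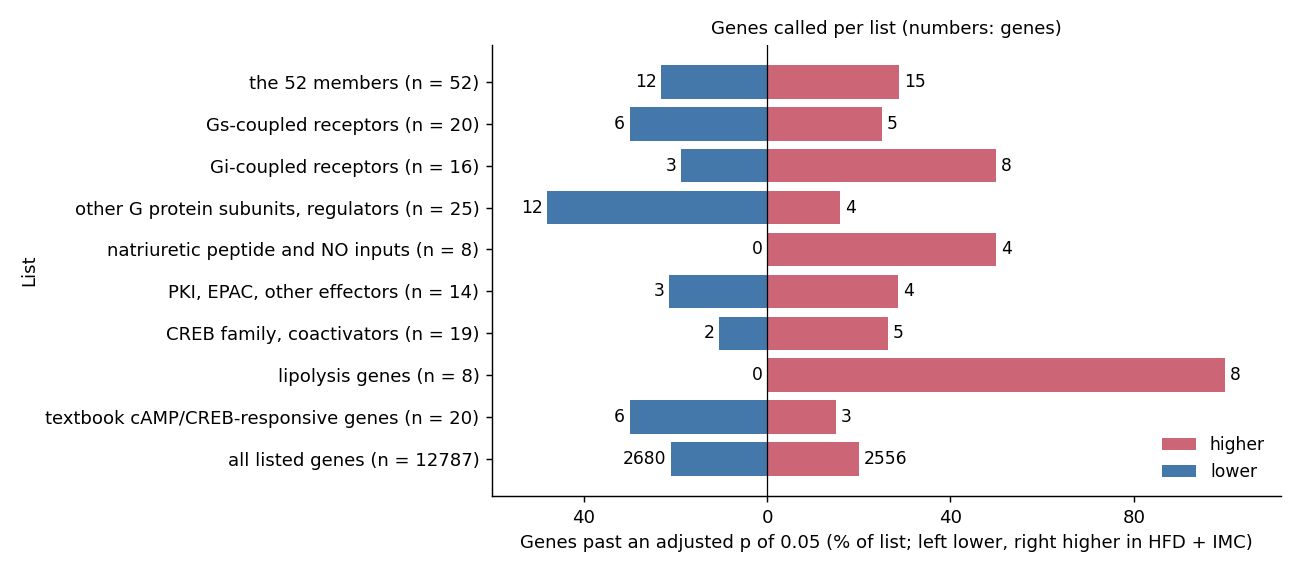
Share of each list that passed an adjusted p of 0.05, in percent, drawn to the right where genes were higher and to the left where they were lower in HFD + IMC mice, with the number of genes at each bar. The 52 members had 15 higher and 12 lower, the lipolysis list had all 8 genes higher, and 2556 and 2680 of all 12787 genes were higher and lower.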

How the data were processed

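Gonadal WAT of 11 mice (HFD, n = 5, and HFD + IMC, n = 6) was sequenced from directional mRNA libraries, 1 per mouse. The authors trimmed reads with Trim Galore, aligned them to mm10 with STAR and UCSC annotation and counted reads per gene. They removed transcripts with few reads, scaled libraries by the upper quartile and deposited log2 CPM values for 12787 genes. The transcript numbers that the paper gives for its filter do not lead to 12787. The filter behind this list is therefore not fully known. The deposited table also holds the authors' own fold change, mean level, likelihood ratio, p-value and FDR, which were not used. Groups came from the treatment label, and mouse numbers, given in label order, pair no mice. Housing in groups is described for the study, and cages are not given per mouse, so mice sharing a cage may not be independent.

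Genes were compared with limma 3.58.1 in R 4.3.3 (lmFit, eBayes with trend) on the deposited log2 CPM, with the group as the only factor, no further filter and Benjamini-Hochberg adjustment over all 12787 genes. The planned exact test of class totals is not reported, because a sum over chosen members carries no p here. Its p-values were still computed and entered the adjustment of the ratios. Each of the 4 ratios was tested over the 462 arrangements of the mice (exact permutation, two-sided, smallest p 0.00216), adjusted over the 12 totals and ratios planned. The ratios reuse values of members tested singly by limma, so their p-values are not separate support. CPM steps gave the reads behind each value (100% within 0.1 of a whole read, added constant 0.25 reads on average), so depth is known and a single read was worth 0.0403 to 0.0450 CPM. Counting error is the limit for low members only, and reads are not independent molecules. Levels between genes were compared as CPM per kb of the union of GENCODE exons on GRCm38, the build named mm10, which matched all 52 members. Because this union counts exons of every isoform, a gene with many isoforms has a lower level per kb.

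The members, the 8 pathway lists and the 13 marker lists were chosen with earlier results of these data known. Each member is named. Values of each HFD mouse, and the lowest, median and highest of the 6 HFD + IMC mice, are given for members with an adjusted p under 0.05 and an absolute log2 fold change of at least 0.5, for the most abundant member of a class and for Gnas, Creb1 and Crem, and of other lists up to 3 genes past the threshold with the largest change were named. Alternatives were limma without trend, a minimum mean of 2 log2 CPM, 2 added reads, total-read and median-of-ratios scaling, limma voom on recovered reads, and leaving out each mouse. A phosphodiesterase total without Pde4dip, Pde6d and Pde12 was added after the values were seen. The limma, permutation and recovery steps were tested on simulated data. Tables and figures were made with Python 3.11.15, numpy 2.4.6, pandas 2.3.3 and matplotlib 3.10.9.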

Additional observations from a re-analysis of the deposited data

Results flagged for a closer look

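Single mice stood far from the rest of their group in 7 of 128 sets of values (the 52 members, 8 class totals and 4 ratios in each of the groups), where the gap to the nearest mouse exceeded Dixon's 95% critical value. Chance flags about 1 in 20 groups. HFD mouse 5 had Akap12 at 7.60 log2 CPM against 6.83 in the next mouse, Crem at 4.37 against 4.10, and Akap13 at 7.89 against 7.99. HFD mouse 2 had Pde12 at 4.14 log2 CPM against 4.27, and HFD mouse 1 had Pde8a at 4.95 against 5.01. HFD + IMC mouse 1 had Akap8l at 5.33 log2 CPM against 5.53, and a summed G protein alpha subunit level of 1910 CPM against 1760 CPM. Without its stray mouse, Akap12 passed the test of the group difference (0.36, adjusted p = 0.0037 by limma), Akap8l still passed it (-0.18, adjusted p = 0.0185), and Crem, Akap13, Pde12 and Pde8a did not.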

How the results depend on the processing

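Of the 27 members called, 21 were called in the same direction in all 17 other fits. The 6 others were Gnai3, Adcy7, Prkar1a, Prkar1b, Pde1c and Pde9a. Pde1c was lost only because its mean is below 2 log2 CPM, so that the filter removed it along with Pde9a. Gnai3 was also lost without the variance trend (adjusted p = 0.0644) and with median-of-ratios scaling (0.0587), and other losses came from leaving out a mouse, as given with each gene. Total-read scaling added Adcy9, Akap10 and Pde4a to the lower members (adjusted p = 0.0273, 0.0435 and 0.0416). No direction of a called member was reversed in any fit. Leaving out each mouse in turn gave 14 to 18 higher members, 8 to 12 lower members and 4299 to 5125 genes called in all, the fewest without HFD mouse 3. The ratio of Gnas to Gnai1, Gnai2 and Gnai3 differed by 0.10 to 0.17 (log2) with 1 mouse left out, and it passed the test only without HFD mouse 5 (exact permutation test, adjusted p = 0.0143). The other 3 ratios passed it throughout, and class totals moved by less than 1 SD between mice under every scaling or left-out mouse. Measured against the group difference itself, 3 small differences moved by over 1.5 times without changing sign. That of the anchoring proteins, 23.7 CPM, was 6.47 CPM with total-read scaling, and 10.8, 42.2 and 15.6 CPM without HFD mouse 1, HFD mouse 5 and HFD + IMC mouse 5. That of the G protein alpha subunits, 80.1 CPM, was 41.6 CPM with total-read scaling and 50.3 CPM without HFD + IMC mouse 1. That of the guanylyl cyclases, -3.11 CPM, was -1.09 and -2.01 CPM without HFD mouse 3 and HFD + IMC mouse 4. Without Pde4dip, Pde6d and Pde12, a choice made after seeing the data, the phosphodiesterase total differed by 184 CPM, against 188 CPM with them. No paired analysis was possible because the labels carry no replicate numbers shared by the groups. Depth limits chiefly Akap5, Pde1c and Pde9a, with as few as 22, 16 and 27 reads in a mouse.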
